A study of Mus musculus with 17 samples.

Results

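Transcript levels of 10 antioxidant genes linked to the transcription factor NRF2 were followed in HSPC, the hematopoietic stem and progenitor cells from which blood forms, after an inflammatory challenge in mice. The 10 genes (Nfe2l2, Hmox1, Nqo1, Gclm, Gclc, Txnrd1, Srxn1, Prdx1, Gpx1 and Gpx4) were taken by symbol from the 35321 symbols of the count table. All 10 passed the filter on low counts that left 14920 genes for testing. Marrow of wild-type C57BL/6J mice had been sorted for HSPC on a flow cytometer, and polyadenylated RNA was sequenced in 17 libraries. Mice of the control group (5 libraries, titled Day 0) had been injected intraperitoneally with phosphate-buffered saline (PBS). The other 4 groups of 3 libraries each had been injected with lipopolysaccharide (LPS), an inflammatory molecule of the bacterial envelope, or with LPS and an antibody that blocks the receptor of interleukin-10 (IL-10R), and marrow was taken 24 h or 72 h later. There was no group given the antibody without LPS. Doses of 5 micrograms (LPS) and 100 micrograms (antibody) stand in the series' design text, but the sample protocol has these figures in milligrams, and neither was assumed to be correct. The labels do not say whether each library came from its own mouse, so p-values measure the spread between these libraries, which may be technical in part. Age, sex and the markers of the sorting gate are not given in the sources used here.

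NRF2, the protein of Nfe2l2, is a transcription factor that the adaptor KEAP1 marks for breakdown in unstressed cells. Oxidants and electrophiles disable KEAP1, NRF2 then accumulates, pairs with small MAF proteins and binds antioxidant response elements near genes that make glutathione, reduce thioredoxin and peroxiredoxin, and break down heme and quinones. In blood-forming cells the level of reactive oxygen species is tied to whether stem cells rest or divide, and in macrophages NRF2 and the heme sensor BACH1 control Hmox1, which is strongly expressed where old red cells are digested. NRF2 itself is regulated mainly through its protein, so the transcript of Nfe2l2 need not follow its activity.

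Promoter sequence is shown here for 4 of the 10 genes because Gclm and Txnrd1 carry the main result and Prdx1 and Srxn1 act in the same thioredoxin branch. The letters searched were the core of the antioxidant response element, TGACNNNGC, and its variant TGAGNNNGC, on both strands of the 250 bases before each annotated start (RefSeq promoters, build GRCm38.p6). A promoter window was matched for 8 of the 10 genes, the exceptions being Hmox1 and Gclc. At least 1 match was found in 5 genes (Nfe2l2, Srxn1, Gclm, Prdx1 and Txnrd1), whose windows with a match were 5 of the 13 windows of the 8 genes. Of the 32851 windows searched 23% held a match (10.2% for TGACNNNGC and 14.4% for TGAGNNNGC). That search left out 1 chromosome, on which none of the 10 genes lies. Each stretch below lies on the plus strand, which is the strand of the gene, runs 5′ to 3′, and has the 9 matched bases in capitals.
Gclm, chr3:122245398-122245456, match 134 bases before the start on the opposite strand: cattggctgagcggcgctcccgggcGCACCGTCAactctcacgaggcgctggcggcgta
Txnrd1, chr10:82859089-82859147, match 92 bases before the start on the opposite strand: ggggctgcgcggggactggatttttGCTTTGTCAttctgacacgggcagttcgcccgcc
Prdx1, chr4:116685441-116685499, match 133 bases before the start on the opposite strand: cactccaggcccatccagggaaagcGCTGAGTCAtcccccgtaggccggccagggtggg
Srxn1, chr2:152105454-152105512, match 45 bases before the start on the gene's strand: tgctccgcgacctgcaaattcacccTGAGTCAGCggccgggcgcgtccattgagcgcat
None of these stretches overlaps an annotated exon of its own gene, and exons of other genes were not checked. The Txnrd1 match belongs to 1 of several annotated starts of that gene. A match is a property of the letters and does not show that NRF2 binds there, and the 3 windowed genes without a match (Nqo1, Gpx1 and Gpx4) lack these letters in this window, which says nothing of sites elsewhere.

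Library totals ranged from 10516722 to 16006001 counts. Levels are counts per 1000000 counts of the library (CPM), with each total scaled by its TMM factor (trimmed mean of M-values). LPS library 1 at 24 h stood apart, with a factor of 0.799 against 0.947 to 1.12 in the other libraries, and changes that depend on it are given without it as well. The 11 stem and progenitor markers checked (among them Kit, Cd34 and Flt3) were detected in every library, with a summed level between 1031 and 2505 CPM. Their level moved with treatment: the sum averaged 2009 CPM with PBS, 1135 with LPS at 24 h, 1313 with antibody at 24 h, 1931 with LPS at 72 h and 1505 with antibody at 72 h, so it was low in the groups in which Gclm and Txnrd1 were high. Of the 11 markers 7 fell at 24 h after LPS (median log2 change -1.30) and 6 were higher at 72 h than at 24 h after LPS, and the part of cell composition in the results was not tested. Markers of 14 macrophage genes summed to between 415 and 3080 CPM in the PBS libraries and to between 115 and 467 CPM in the treated ones. The count table names the PBS libraries, the 2 libraries numbered 1 at 24 h and the rest in separate styles. Whether a style marks a batch is not stated, and for PBS style and group cannot be told apart.

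The 10 transcripts spanned a wide range of abundance in unchallenged HSPC. Scaled by the length of merged exons, glutathione peroxidase 1 (Gpx1) was the most abundant with a PBS mean of 652 CPM per kb. It was followed by Hmox1 (103), Prdx1 (87.7), Gpx4 (78.4), Txnrd1 (24.9), Nfe2l2 (24.2), Gclc (14.6) and Gclm (10.6). The place of Hmox1 above Prdx1 and Gpx4 depended on PBS library 2, at 521 CPM. Before scaling by length its PBS mean was 181 CPM and its PBS median 87.9 CPM. Nqo1 and Srxn1 were the lowest, with PBS means of 3.07 and 2.98 CPM per kb. The group mean was lowest with LPS at 72 h for 7 of the 10 genes, and it was highest in a 24 h group for 7 as well (4 with LPS and 3 with LPS and antibody). When groups were ordered by mean for each gene, 7 of the 40 neighbouring pairs had libraries that did not overlap. The share over all genes was not counted and the order comes from the same values, so the 7 pairs only describe the levels. The pairs were LPS at 24 h over PBS for Nfe2l2, LPS at 24 h over LPS at 72 h for Hmox1 and Srxn1, PBS over LPS at 72 h for Gclm and Txnrd1, PBS over the 72 h antibody group for Nqo1, and the 72 h antibody group over PBS for Gpx4. The remaining neighbours overlapped.

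**Figure D1:**
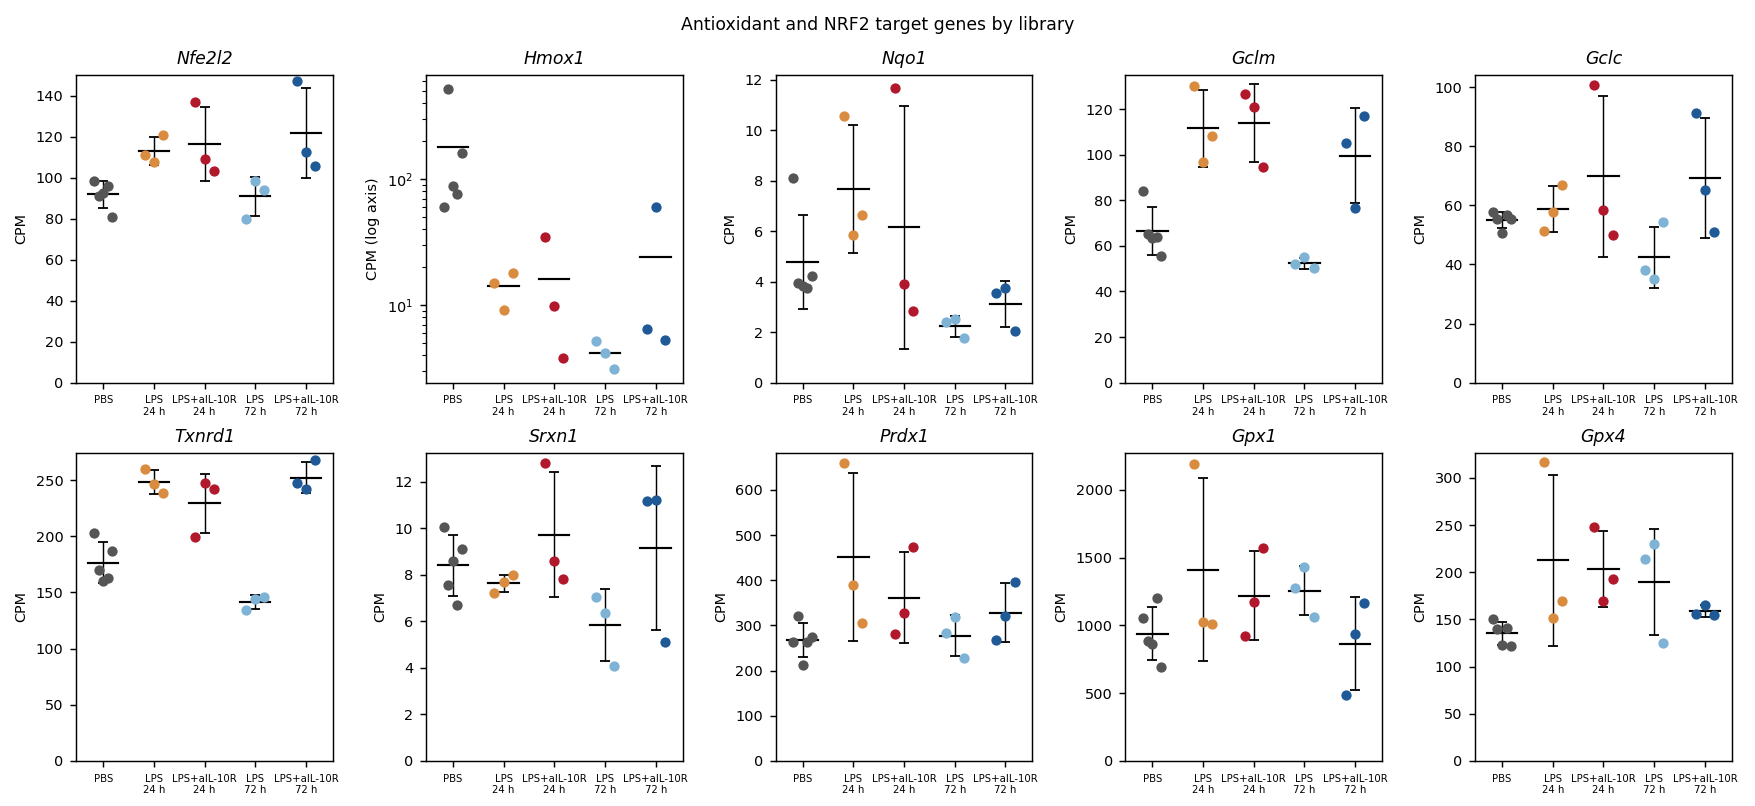
Level of each of the 10 genes in every library (points), with the group mean (bar) and SD (whiskers; not drawn for Hmox1, whose axis is logarithmic), in CPM, for PBS (n = 5) and the 4 treated groups (n = 3 each; aIL-10R is the blocking antibody). Gclm and Txnrd1 were high in both 24 h groups and in the 72 h antibody group and low with LPS alone at 72 h, whereas Hmox1 was highest in the PBS libraries.

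The comparison of LPS at 24 h with PBS measures the early response. In it, 5 of the 10 genes were called, 4 higher and 1 lower, meaning an adjusted p below 0.05 in edgeR's test. Of all genes tested 37.6% were called. For 5 of the 10 no LPS library overlapped a PBS library, beside 42.8% of all genes. Gclm, the modifier subunit of the enzyme that carries out the rate-limiting step of glutathione synthesis, and Txnrd1, the cytosolic thioredoxin reductase, rose. So did Prdx1, a peroxiredoxin that thioredoxin recycles, and Gpx4, the peroxidase that removes lipid peroxides. Both of these calls were lost without LPS library 1, and that of Gpx4 held in only 4 of 8 fits with a library left out. Hmox1, which opens the heme ring to biliverdin, iron and carbon monoxide, fell. The median log2 change of the 10 was 0.54, beside -0.03 for all genes tested, and it was 0.29 without LPS library 1.

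Gclm (GRCm38 chr3:122245557-122270732, plus strand) stood at 84.0, 65.1, 63.6, 63.9 and 55.8 CPM in PBS libraries 1 to 5 and at 130.1, 96.7 and 108 CPM in LPS libraries 1 to 3 at 24 h. Every LPS library lay above every PBS library. The group means were 66.5 ± 10.5 CPM (SD, n = 5) and 112 ± 17 CPM (SD, n = 3), a 1.68-fold difference (log2 change 0.75, SE 0.155, edgeR adjusted p = 0.00217). Counting of reads by strand is not given in the sources used here, and the gene overlaps an annotated antisense transcript, Gm17494, that held at most 205 counts in a library.

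Txnrd1 (chr10:82833951-82897712, plus strand) stood at 203, 169.7, 161, 163 and 186 CPM with PBS and at 259, 247 and 239 CPM with LPS at 24 h. Again no library overlapped. The change was 1.41-fold (log2 change 0.49, SE 0.102, edgeR adjusted p = 0.00218), from 177 ± 17.9 CPM to 248 ± 10.5 CPM. Genes that overlap Txnrd1 held at most 15 counts in a library (Eid3). Both Gclm and Txnrd1 stayed called with any 1 library left out, with adjusted p of at most 0.0167 for Gclm and 0.00993 for Txnrd1.

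Prdx1 (chr4:116685544-116700822, plus strand) stood at 264, 319.8, 213, 263 and 273 CPM with PBS and at 659.6, 389 and 306 CPM with LPS at 24 h (log2 change 0.76, SE 0.228, edgeR adjusted p = 0.0167). LPS library 1 was far above the others and library 3 lay within the PBS range. Leaving out LPS library 1 gave 0.39, edgeR adjusted p = 0.183. Gpx4 (chr10:80047166-80056439, plus strand) stood at 151, 139, 123, 141 and 122 CPM with PBS and at 317, 152 and 169 CPM with LPS (log2 change 0.65, SE 0.223, edgeR adjusted p = 0.0310). All 3 LPS libraries were above PBS, library 2 by a narrow margin, and leaving out library 1 gave 0.26, edgeR adjusted p = 0.347. With the replicate number as a block, neither was called (Prdx1 0.76, edgeR adjusted p = 0.0715; Gpx4 0.58, edgeR adjusted p = 0.0729). They were not called either in the same libraries without the block, at adjusted p of 0.0528 and 0.0982. With a library left out Prdx1 was called in 7 of 8 fits and Gpx4 in 4 of 8. Over the 9 other settings Prdx1 was called in 6 and Gpx4 in 4.

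The other 5 genes were not called at 24 h after LPS. Nfe2l2 (chr2:75675513-75704641, minus strand) stood at 98.4, 91.2, 92.5, 96.1 and 81.0 CPM with PBS and at 111, 108 and 121 CPM with LPS. The LPS libraries were all above the PBS libraries, and the difference missed the threshold (log2 change 0.30, SE 0.126, edgeR adjusted p = 0.0699). Gpx1 (chr9:108338903-108340343, plus strand), which reduces hydrogen peroxide with glutathione, had a log2 change of 0.58 (95% interval -0.04 to 1.21). Its LPS libraries held 2188, 1026 and 1011 CPM, so that the mean of 1408 ± 675 CPM was carried by library 1, and the PBS libraries ranged from 689 to 1202 CPM. Without library 1 its log2 change was 0.13 (edgeR adjusted p = 0.772). Gclc (chr9:77754535-77794485, plus strand), the catalytic partner of Gclm, had a log2 change of 0.09 (95% interval -0.37 to 0.56). The interval for Srxn1 (chr2:152105516-152111376, plus strand), the enzyme that repairs over-oxidized peroxiredoxins, was -0.70 to 0.42. For Nqo1 (chr8:107388225-107403206, minus strand), a quinone reductase often used as a readout of NRF2, it was -0.17 to 1.53, around a log2 change of 0.68 that was 0.40 without library 1.

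With LPS and antibody at 24 h, compared with the same PBS libraries, 3 of the 10 genes were called, beside 24.2% of all genes tested. Gclm stood at 127, 121 and 94.6 CPM, above every PBS library (log2 change 0.78, SE 0.155, edgeR adjusted p = 0.00541). Txnrd1 stood at 199, 247 and 242 CPM, with library 1 inside the PBS range (log2 change 0.38, SE 0.102, edgeR adjusted p = 0.0180), and this call was lost without antibody library 2 (0.32, edgeR adjusted p = 0.0913). Hmox1 fell (log2 change -3.47, SE 0.977, edgeR adjusted p = 0.0210). The median log2 change of the 10 was 0.37, beside 0.00 for all genes tested, and libraries did not overlap for 4 of the 10, beside 31% of all genes. Gpx4 libraries at 248, 169 and 193 CPM were all above PBS without passing the threshold (log2 change 0.59, SE 0.223, edgeR adjusted p = 0.0652). The same held for Nfe2l2 at 137, 109 and 103 CPM (log2 change 0.34, SE 0.126, edgeR adjusted p = 0.0578). These comparisons share the PBS libraries with those of the other treated groups, so the values are given side by side and their likeness is not counted as a result.

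Between LPS with antibody and LPS alone at 24 h no member was called by edgeR, DESeq2 or voom. None of the 10 had an unadjusted p below 0.05. Voom was run with sample quality weights here and throughout. Of all genes tested 0% were called by edgeR and 1.83% had an unadjusted p below 0.05. Libraries did not overlap for 0 of the 10 genes, beside 3.15% of all genes. The interval of the antibody difference for Gclm was -0.34 to 0.40 on the log2 scale, and for Txnrd1 it was -0.36 to 0.13. That of Nfe2l2 was -0.26 to 0.34. The antibody differences at 72 h for Gclm and Txnrd1 (0.93 and 0.84) lie above the 24 h intervals of the same genes. For Hmox1 the interval was wide, from -1.83 to 2.25.

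**Figure D2:**
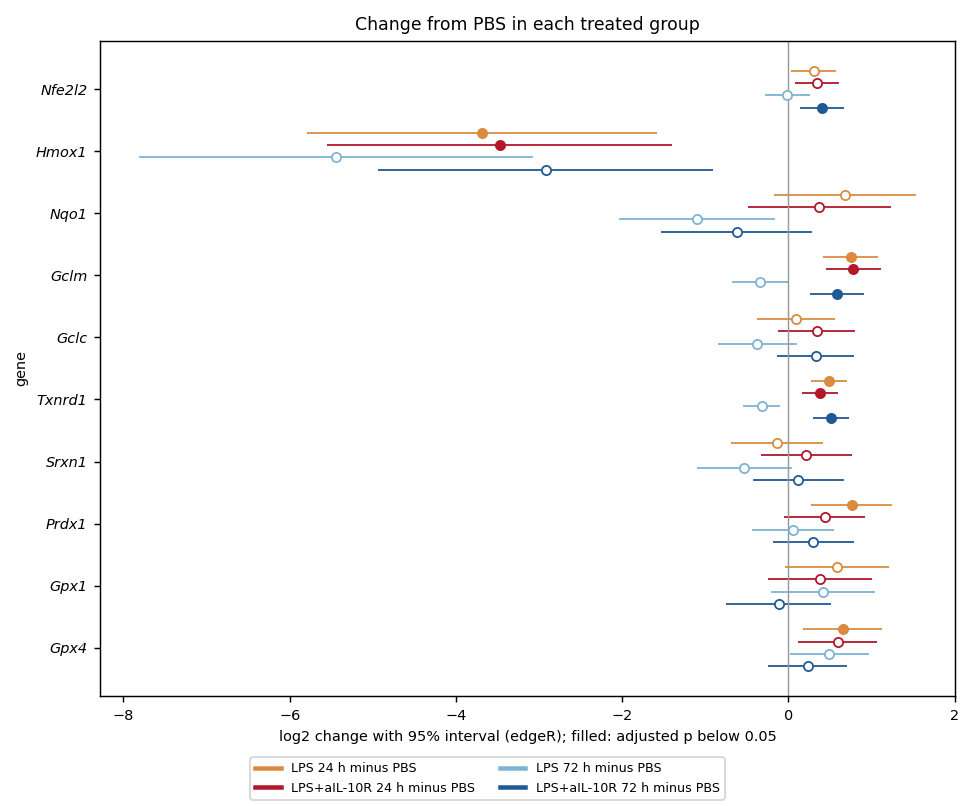
Log2 change from PBS of each gene in the 4 treated groups with its 95% interval (edgeR); filled points had an adjusted p below 0.05. Gclm and Txnrd1 lay above 0 in 3 of the groups and below 0 with LPS alone at 72 h; all 4 comparisons share the PBS libraries.

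By 72 h after LPS alone, no member differed from PBS at an adjusted p below 0.05 in edgeR, beside 0.0201% of all genes tested (3 genes). Of the 10, 5 had an unadjusted p below 0.05, as did 11.4% of all genes; DESeq2 called 1 member (Hmox1) and voom called 4 (Hmox1, Gclc, Txnrd1 and Gpx4). Libraries did not overlap for 4 of the 10 genes, all lower with LPS, beside 12% of all genes. Gclm stood at 51.9, 55.0 and 50.4 CPM and Txnrd1 at 134, 144 and 146 CPM. For both genes all 3 libraries lay below all 5 PBS libraries, by log2 changes of -0.34 (edgeR adjusted p = 0.434) and -0.32 (edgeR adjusted p = 0.280). Nqo1, at 2.38, 2.54 and 1.76 CPM, was also below every PBS library, whose values were 8.10, 3.94, 3.84, 3.76 and 4.21 CPM (log2 change -1.10, edgeR adjusted p = 0.379). Nfe2l2, at 80.0, 98.4 and 94.2 CPM, overlapped PBS (95% interval of the log2 change -0.29 to 0.25).

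From 24 h to 72 h after LPS alone, 3 of the 10 genes fell and none rose, beside 31.1% of all genes tested (16.4% lower). Gclm fell by 1.09 on the log2 scale (SE 0.178, edgeR adjusted p = 0.000557), from 112 ± 17 CPM to 52.4 ± 2.36 CPM. Txnrd1 fell by 0.81 (SE 0.116, edgeR adjusted p = 0.000265), from 248 ± 10.5 CPM to 141 ± 6.37 CPM. In both genes the 24 h and 72 h libraries were well apart. Nqo1 fell by 1.78 (SE 0.482, edgeR adjusted p = 0.0114), from 10.6, 5.84 and 6.63 CPM to 2.38, 2.54 and 1.76 CPM, and narrowly lost the call without LPS library 1 at 24 h (-1.47, edgeR adjusted p = 0.0517). The median log2 change of the 10 was -0.59, beside 0.02 for all genes tested. All 10 changes were negative, but without LPS library 1 at 24 h the median was -0.47 and Gpx1 (0.32) and Gpx4 (0.26) were positive. Libraries did not overlap for 6 of the 10, beside 45.4% of all genes. Prdx1 came nearest to the threshold among the rest (log2 change -0.70, SE 0.260, edgeR adjusted p = 0.0506), and without LPS library 1 at 24 h its change was -0.31, edgeR adjusted p = 0.345.

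At 72 h after LPS, Gclm and Txnrd1 were higher in HSPC of mice that also received the IL-10R antibody. Comparing LPS with antibody against LPS alone at 72 h, edgeR called 2 of the 10 genes, both higher, beside 15.1% of all genes tested (8.64% higher). Gclm stood at 105, 76.8 and 117 CPM with antibody against 51.9, 55.0 and 50.4 CPM without, a 1.90-fold difference (log2 change 0.93, SE 0.178, edgeR adjusted p = 0.00444). Txnrd1 stood at 247, 242 and 268 CPM against 134, 144 and 146 CPM, a 1.78-fold difference (log2 change 0.84, SE 0.116, edgeR adjusted p = 0.00122). In neither gene did libraries of the groups overlap (4 of the 10 genes, beside 33.2% of all genes), and both calls held in each of the 6 fits that left out a library. This comparison uses the same 72 h LPS libraries as the one between 24 h and 72 h. The antibody libraries of Txnrd1 lay close together, whereas those of Gclm were more spread, with library 2 the lowest.

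The difference between the antibody effects at 72 h and at 24 h was itself tested, and Gclm and Txnrd1 were the 2 members called, beside 6.35% of all genes tested (4.03% higher). For Txnrd1 it was 0.95 on the log2 scale (SE 0.163, edgeR adjusted p = 0.00841), and it stayed called in all 12 fits that left out a library. For Gclm it was 0.90 (SE 0.249, edgeR adjusted p = 0.0448). Voom did not call Gclm (0.57, adjusted p = 0.121) and called Gclc in its place (adjusted p = 0.0480). The Gclm call was lost in 9 of those 12 fits, with adjusted p up to 0.127 without antibody library 3 at 24 h, while its log2 value ranged from 0.74 to 1.08.

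The other members at 72 h were not called. Nfe2l2 stood at 147, 113 and 106 CPM with antibody, above every library with LPS alone, and just missed the threshold (log2 change 0.42, SE 0.142, edgeR adjusted p = 0.0563). Gclc stood at 91.2, 65.3 and 51.1 CPM against 38.1, 35.1 and 54.3 CPM. Its groups overlapped through antibody library 3 and LPS library 3 (log2 change 0.70, SE 0.248, edgeR adjusted p = 0.0666), and it was called by DESeq2 (adjusted p = 0.0409) and by voom (adjusted p = 0.00257). Srxn1 stood at 11.2, 11.2 and 5.09 CPM against 7.06, 6.34 and 4.10 CPM (log2 change 0.65, SE 0.296, edgeR adjusted p = 0.140). With antibody library 3 left out, 5 members were called, Gclc, Srxn1 and Nfe2l2 in addition to Gclm and Txnrd1, beside 1838 of 15251 genes tested. That was the most in the 6 fits with a library left out, which called 2 to 5 members. Intervals of the 3 peroxide-removing genes included 0. They were -0.30 to 0.80 for Prdx1, -1.25 to 0.17 for Gpx1 and -0.80 to 0.28 for Gpx4.

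Set against PBS, the 72 h antibody group had 3 members called, all higher, beside 13.2% of all genes tested (6.81% higher). Libraries did not overlap for 4 of the 10, beside 26.9% of all genes. Txnrd1 was higher by 0.51 (SE 0.102, edgeR adjusted p = 0.00880) and held in all 8 fits with a library left out. Gclm was higher by 0.58 (SE 0.155, edgeR adjusted p = 0.0258), with antibody library 2 inside the PBS range. Nfe2l2 was higher by 0.41 (SE 0.125, edgeR adjusted p = 0.0444). The Gclm call was lost without PBS library 2 or 5 or antibody library 1 or 3, and the Nfe2l2 call in 6 of the 8 fits. Between 24 h and 72 h with antibody no member was called by edgeR, DESeq2 or voom and none had an unadjusted p below 0.05, beside 0% called and 4.26% at that unadjusted p of all genes tested. Libraries did not overlap for 1 of the 10 (Gpx4, lower at 72 h), beside 9.26% of all genes. The interval of that time difference was -0.57 to 0.18 for Gclm and -0.11 to 0.38 for Txnrd1.

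**Figure D3:**
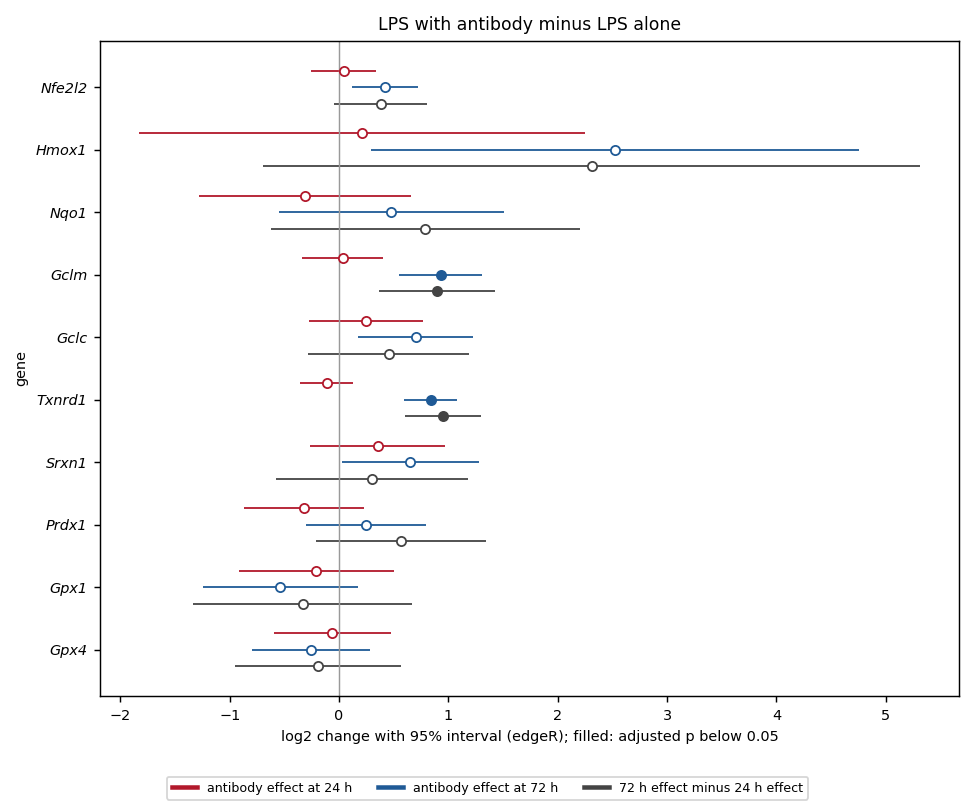
Log2 difference of LPS with antibody minus LPS alone at 24 h and at 72 h, and the 72 h difference minus the 24 h difference, for each gene with its 95% interval (edgeR); filled points had an adjusted p below 0.05. Gclm and Txnrd1 have filled points for the 72 h difference and for the change between times, and no gene has one at 24 h.

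Hmox1 (chr8:75093621-75100589, plus strand) had the widest range of the 10 genes, from 3.14 CPM in LPS library 3 at 72 h to 521 CPM in PBS library 2. The PBS libraries stood at 59.7, 521, 87.9, 75.5 and 160.2 CPM. With LPS they held 15, 9.13 and 18.1 CPM at 24 h and 5.22, 4.14 and 3.14 CPM at 72 h. With antibody they held 35.0, 9.76 and 3.82 CPM at 24 h and 6.48, 60.3 and 5.30 CPM at 72 h. Every treated library was below every PBS library except antibody library 2 at 72 h, which slightly exceeded PBS library 1. The fall was 12.8-fold at 24 h after LPS (log2 change -3.68, SE 0.991, edgeR adjusted p = 0.00952) and 11.1-fold with antibody. At 72 h the log2 changes were -5.44 with LPS (SE 1.12, edgeR adjusted p = 0.146) and -2.92 with antibody (SE 0.947, edgeR adjusted p = 0.0524), neither called. Without PBS library 2 the 24 h changes were -2.77, edgeR adjusted p = 0.0212 for LPS, and -2.56, edgeR adjusted p = 0.0475 with antibody. The antibody call at 24 h was lost without antibody library 2 or 3 and with the replicate block (edgeR adjusted p = 0.0534). At 72 h with antibody the log2 change was -2.00, edgeR adjusted p = 0.126, without PBS library 2, and -4.91, edgeR adjusted p = 0.0125, without antibody library 2.

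Macrophage markers, like Hmox1, were lower in the treated groups than with PBS. Of 14 markers tested, 13 fell at 24 h after LPS (median log2 change -4.40; 11 to 13 with any 1 library left out), 11 fell with antibody at 24 h, none was called at 72 h after LPS (all 14 had an unadjusted p below 0.05, 13 of them lower and Csf1r higher, at 228 against 154 CPM) and 5 fell with antibody at 72 h. The count of 11 dropped to 3 without antibody library 2 at 24 h and the count of 5 to 0 without antibody library 1 at 72 h. Without Csf1r, which progenitors express too, the summed level of the other 13 was 300.3, 2861, 597, 547 and 1143 CPM in PBS libraries 1 to 5 and between 32.7 and 374 CPM in the treated libraries. The highest sum was in PBS library 2, the library with the most Hmox1, and among treated libraries in antibody library 2 at 72 h, again the one with the most Hmox1. Between 24 h and 72 h after LPS alone the sum and Hmox1 did not move together. The sum was 47.2 to 52.9 CPM at 24 h and 70.6 to 75.9 CPM at 72 h, whereas Hmox1 was lower at 72 h. Cd163 alone went from a mean of 8.30 to 36.9 CPM. Of all 14 markers only 4 had a positive log2 change between these times, and their median was -0.34. At most 2 of the 14 markers were at 0 in a library (Timd4, Siglec1 or Marco), all in treated libraries. The part of macrophage RNA in the Hmox1 values was not tested, and in bulk RNA fewer cells of a type and less RNA per cell cannot be told apart.

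**Figure D4:**
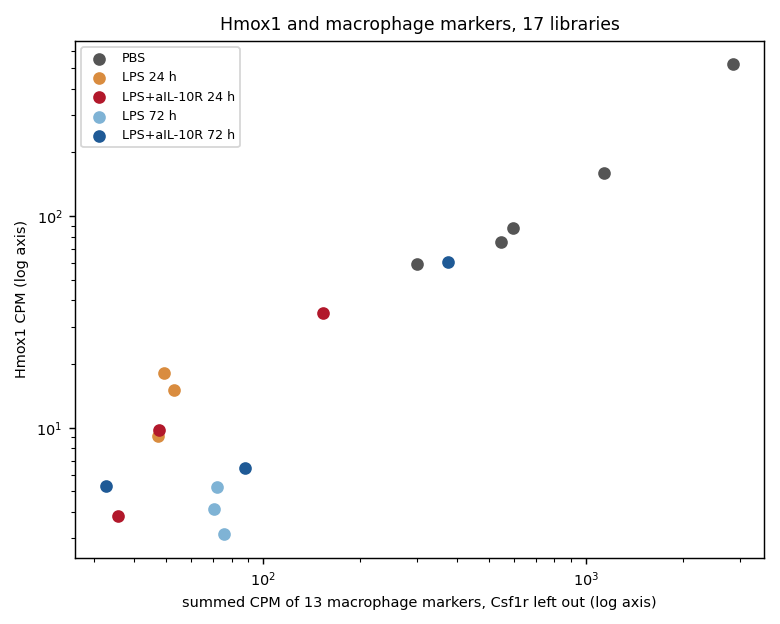
Hmox1 level in CPM against the summed CPM of 13 macrophage markers (Csf1r left out) in the 17 libraries, both on log axes, with the groups in colours. PBS libraries lie at the upper right, with library 2 at 2861 and 521 CPM, and antibody library 2 at 72 h lies beside the lowest PBS library at 374 and 60.3 CPM.

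In Nqo1, Srxn1 and Gclc a single antibody library at 24 h stood above the others of its group. Nqo1 stood at 11.7, 3.90 and 2.85 CPM with antibody at 24 h, Srxn1 at 12.8, 8.59 and 7.80 CPM and Gclc at 101, 58.5 and 50.0 CPM. In all 3 genes library 1 was the highest. That library also had the highest summed level of 12 erythroid markers, 1942 CPM, against 413 and 21.2 CPM in libraries 2 and 3. At 72 h with antibody, library 1 again held the most Gclc (91.2, 65.3 and 51.1 CPM) and the most erythroid marker RNA (1227 CPM, against 163 and 7.99 CPM). There library 2 held the most Nqo1 (3.53, 3.74 and 2.05 CPM) and, narrowly, the most Srxn1, and with LPS at 24 h Nqo1 was highest in library 1 but the erythroid sum in library 3. Erythroid sums were 208 to 397 CPM with PBS, 341 to 780 CPM with LPS at 24 h and 5.85 to 111 CPM with LPS at 72 h. At 24 h after LPS the sum of 4 globins went the other way. It was 56.1 to 202 CPM with PBS and 24.3 to 40.7 CPM with LPS at 24 h. Of the 12 erythroid markers none was called higher in that comparison and 1 was lower (Hbb-bt, log2 change -1.63). Their median log2 change was -0.13. In the 3 libraries with the smallest erythroid sums 4 to 6 of the 12 markers were at 0, among them Hba-a2 and Slc4a1. The part of erythroid RNA in these values was not tested. Without antibody library 1 at 24 h the log2 change of Gclc from PBS was -0.02 in place of 0.34, and that of Nqo1 was -0.50 in place of 0.37, with neither called in either fit.

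The wider pathway was followed through 8 lists that hold 89 genes besides the 10, of which 85 were tested. At 24 h after LPS, 27 of the 85 rose and 9 fell, with a median log2 change of 0.29, so that 42.4% were called beside 37.6% of all genes. Lists of the NADPH supply (6 of 10 higher, 0 lower), of glutathione synthesis, recycling and transfer (6 of 16 higher, 1 lower) and of the thioredoxin system (5 of 12 higher, 1 lower) had medians between 0.50 and 0.54. Mthfd2, a mitochondrial folate enzyme that yields reducing power, rose most in its list, from 34.7 ± 8.79 CPM to 93.7 ± 24.0 CPM (log2 change 1.43, SE 0.220, edgeR adjusted p = 0.000532). In the thioredoxin system Prdx3, the mitochondrial peroxiredoxin, rose (log2 change 0.96, SE 0.147, edgeR adjusted p = 0.000522), as did Txn1, Txn2, Txnrd2 and Prdx6, whereas Txnip, an inhibitor of thioredoxin, fell by 1.41 (SE 0.386, edgeR adjusted p = 0.0106). Among selenoproteins, the family of Txnrd1 and of the glutathione peroxidases, 9 of 19 were higher (Txnrd1 and Gpx4, which are also among the 10, included) and 1 lower, Selenop, which macrophages also make (log2 change -2.42). Without LPS library 1 the 27 higher calls dropped to 9 and the 9 lower ones to 6, the NADPH and thioredoxin lists to 1 higher call each, the selenoprotein list to 4 and both the higher and the lower calls of superoxide and peroxide removal to 0. Txnip also lost its call in that fit (edgeR adjusted p = 0.0585). The median of the 85 or, in that fit, 86 genes tested was then 0.12. Mthfd2, Prdx3 and the glutaredoxin Glrx5 (log2 change 1.33) stayed called with any library left out.

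Of 10 genes that control NRF2, 2 were called at 24 h after LPS, beside 37.6% of all genes. Rbx1, a subunit of the ligase that uses KEAP1, rose (log2 change 0.63, SE 0.158, edgeR adjusted p = 0.00657; not called without LPS library 1) and Btrc, which serves a separate route of NRF2 breakdown, fell (log2 change -0.46, SE 0.152, edgeR adjusted p = 0.0264), a call kept in 4 of 9 fits with libraries left out. Keap1 and Bach1 were not called and are given for their role, chosen after their values were seen. Keap1 had log2 changes of 0.33 at 24 h and -0.14 at 72 h after LPS (edgeR adjusted p = 0.109 and 0.762), and Bach1 of -0.19 and -0.07 (edgeR adjusted p = 0.389 and 0.899). In heme breakdown, quinone reduction and ferritin, 1 of 13 genes rose, Nqo2, a call lost without LPS library 1 (edgeR adjusted p = 0.0926). In the same list 3 genes fell. Those were Ephx1 (log2 change -4.37), the iron exporter Slc40a1 (-3.15) and Osgin1 (-2.26), in the comparison in which macrophage markers fell. Superoxide and peroxide removal was divided, with Sod1 and Sod2 higher (mitochondrial Sod2 log2 change 0.98, SE 0.256, edgeR adjusted p = 0.00815) and catalase (Cat, log2 change -0.42) and Gpx7 lower. No gene of the 6 of the phagocyte NADPH oxidase was called by edgeR, and none had an unadjusted p below 0.05.

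With antibody at 72 h compared with LPS alone, 10 of the 85 were higher and 1 was lower, with a median of 0.04, so that 12.9% were called beside 15.1% of all genes. In the glutathione list 4 of 16 were higher, all of them in cystine import or glutathione turnover. Slc7a11, the cystine transporter, was scarce and rose from 0.443 ± 0.275 CPM to 3.56 ± 1.81 CPM (log2 change 2.99, SE 0.717, edgeR adjusted p = 0.0128). Its partner chain Slc3a2 changed by 0.95 (edgeR adjusted p = 0.00395), Chac1, which degrades glutathione, by 2.31 (edgeR adjusted p = 0.00551) and Ggct by 0.90. Chac1 was scarce too, with means of 0.367 CPM with LPS alone and 1.82 CPM with antibody. The lower gene was the transferase Mgst2 (log2 change -1.59), called in 2 of 6 fits with a library left out. Elsewhere Mthfd2 (log2 change 1.41, SE 0.258, edgeR adjusted p = 0.00357), Sod2 (log2 change 1.26, SE 0.297, edgeR adjusted p = 0.0119), Prdx3, Abcc1, Selenoi and Nfe2l1 were higher. Calls of the 85 ranged from 5 to 12 higher with a library left out, the fewest without LPS library 1 at 72 h, where Slc7a11 was not called (adjusted p = 0.07).

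**Figure D5:**
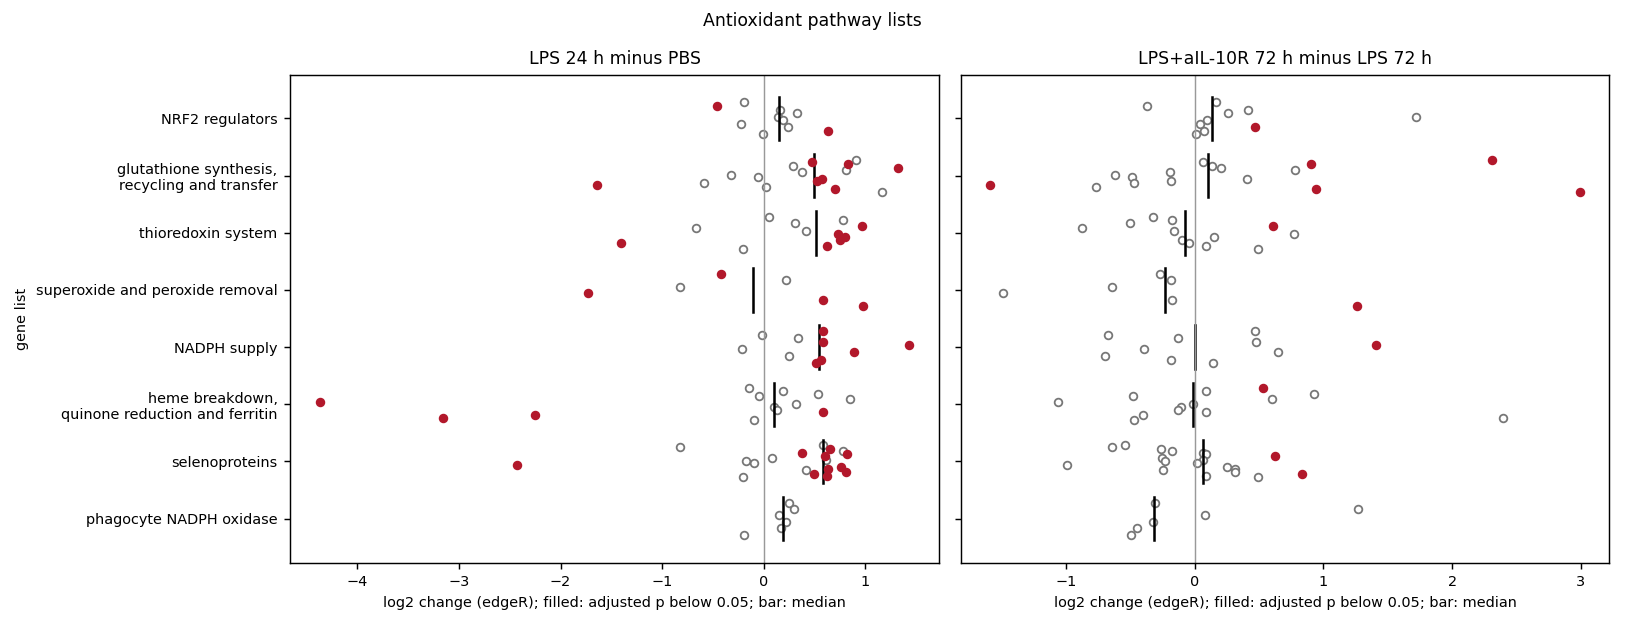
Log2 change of every tested gene of the 8 pathway lists for LPS at 24 h minus PBS (left) and for LPS with antibody minus LPS at 72 h (right); filled points had an adjusted p below 0.05 (edgeR) and bars mark list medians. On the left list medians run from -0.10 to 0.58, with a few strongly lower genes. On the right they run from -0.32 to 0.13, with single genes such as Slc7a11 (2.99) far above.

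Over the remaining comparisons the 85 genes had 16 higher and 3 lower calls for antibody at 24 h against PBS, none for LPS at 72 h against PBS (edgeR; 9 at an unadjusted p below 0.05) and 8 higher and 2 lower for antibody at 72 h against PBS. These are 22.4% and 11.8% of the 85 for the antibody groups, beside 24.2% and 13.2% of all genes. Without antibody library 2 at 24 h the 16 became 5, and without antibody library 1 at 72 h the 8 and 2 became 4 and 0. Among the 8 was Cybb, the catalytic chain of the phagocyte oxidase (log2 change 1.55, SE 0.433, edgeR adjusted p = 0.0320), a call held in 3 of 8 fits with a library left out. From 24 h to 72 h after LPS alone 8 were higher and 18 lower (30.6%, beside 31.1% of all genes). The 8 became 3 without LPS library 3 at 24 h and the 18 became 10 without LPS library 1 at 24 h. Mthfd2 (log2 change -1.57) and Prdx3 (-1.07) were among the lower ones, and Mgst2 (2.66) and Prdx4 (1.01) among the higher.

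The genes whose levels over the 17 libraries were most like those of a member were sought for the 3 members with the widest range of group means (Hmox1, Nqo1 and Gclm), by the mean absolute difference of centred log2 CPM. For Gclm they were Aars (0.0815), Pwp1 (0.103) and Tars (0.104). Aars and Tars encode the alanyl and threonyl tRNA synthetases. Aars stood at 139.8 ± 15.6 CPM with PBS, 253 ± 30.6 CPM with LPS at 24 h, 112 ± 3.12 CPM with LPS at 72 h and 229.8 ± 37.9 CPM with antibody at 72 h. For Hmox1 they were Slc40a1 (0.379), which exports iron from macrophages, Ms4a7 (0.401) and Fcnaos (0.445). For Nqo1 they were Slc26a1 (0.301), Grb10 (0.305) and Pheta2 (0.321).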

How the data were processed

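Polyadenylated RNA of sorted mouse HSPC was sequenced in 17 libraries (PBS, 5; LPS or LPS with IL-10R antibody at 24 h or 72 h, 3 each). The authors deposited 1 table of raw read counts per gene symbol. HISAT2 2.2.0, Subread, featureCounts 2.1.1, R 4.3.2, DESeq2 and build GRCm38 are named in the submitters' processing notes; the annotation and the strand setting are not given in the sources used here. Columns were assigned by matching their names to the library names given in the sample descriptions.

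The counts were analysed in R 4.3.3 with edgeR 4.0.16: filterByExpr (minimum count 10, minimum total 15) kept 14920 genes with 99.9% of all counts, TMM factors were applied, and a quasi-likelihood model with a mean per group was fitted to all 17 libraries. P-values were adjusted over all genes tested (Benjamini-Hochberg), and a gene with an adjusted p below 0.05 was called. SE is the size of the log2 change divided by the root of the F statistic, an approximation, and intervals are 95%. In total 9 comparisons were made, and the fits were tested on simulated data. Alternatives were DESeq2 1.42.0, voom (limma 3.58.1), other scaling, no filter, fits of the groups compared, the replicate number as a block, and each library left out. Voom was always run with sample quality weights, so libraries did not count equally in it. Leaving out both libraries numbered 1 at 24 h, and recounting the lists without each library and the members' medians without LPS library 1 at 24 h, were added after seeing the data.

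The members and lists were chosen with earlier results of these data known. Genes outside the 10 were named by rule: in each list and comparison the called gene with the largest change in each direction, all genes of a count of 5 or fewer, and, for the 3 members with the widest range of group means, the 3 genes nearest in level. Other names were chosen after their values were seen. Replicate numbers were checked by correlating deviations from group means between libraries of the same number. For LPS at 24 h and PBS the pairs gave r of 0.191, 0.188 and 0.158, the only comparison with every pair above 0.1. The main fit was unpaired, and the number entered only as a block in an alternative fit. Libraries of unlike number were not correlated, so these r values do not show that libraries were paired. Gene positions and exon lengths came from GENCODE M21 (GRCm38) and promoters from RefSeq (GRCm38.p6). No libraries were found to be duplicates, the lowest chi-square per gene within a group being 11.8.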

Additional observations from a re-analysis of the deposited data

Results flagged for a closer look

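In the PBS group, Hmox1 in library 2 stood at 521 CPM, far from the other 4 libraries by Dixon's criterion, and Nqo1 in library 1 stood at 8.10 CPM, likewise apart from the rest of its group. Chance marks about 1 in 20 groups in this way. The antibody effect differed between 72 h and 24 h, by edgeR's interaction test, for Gclm (log2 difference 0.90) and for Txnrd1 (0.95). The Txnrd1 call held in all 12 fits with a library left out and in all 9 other settings. That of Gclm held in only 3 of the 12 and 2 of the 9.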

How the results depend on the processing

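No call changed direction under any alternative. The number of members called for LPS at 24 h against PBS was 5, and it was 3 (Hmox1, Gclm and Txnrd1) without both libraries numbered 1 at 24 h and 3 to 5 with each library left out. For LPS with antibody at 24 h against PBS it was 3, and 5 by DESeq2 and in a fit of the groups compared (range with a library left out 1 to 3, the fewest without antibody library 2). For LPS at 72 h against PBS it was 0, against 1 by DESeq2, 4 by voom and 1 in a fit of the groups compared (0 to 0). For LPS with antibody at 72 h it was 3 against PBS (1 to 4), and 2 against LPS alone, where DESeq2 and voom each called 4 (2 to 5). From 24 h to 72 h after LPS it was 3, and 5 by voom (2 to 4). For the antibody effect at 72 h minus that at 24 h it was 2, and 1 (Txnrd1) with upper-quartile factors, with no filter, in a fit of the groups compared and without both libraries numbered 1 at 24 h (1 to 2); voom called 2, Txnrd1 and Gclc, and not Gclm. Gclm and Txnrd1 were called in every alternative run for LPS at 24 h against PBS, for LPS at 72 h against 24 h and for the antibody at 72 h. The causes of these changes were not tested.

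With the replicate number as a block (libraries numbered 1 to 3), members called were 3 for LPS at 24 h against PBS, 1 (Gclm) for antibody at 24 h against PBS, 1 (Txnrd1) for antibody at 72 h against PBS and 1 (Txnrd1) for the change in the antibody effect. The same libraries without the block gave 3 for the first, 2 (Hmox1 and Gclm) for antibody at 24 h against PBS, 1 for antibody at 72 h against PBS and 1 for the change in the antibody effect. The labels do not say what libraries of the same number share. Deviations from group means of the 2 antibody groups had r of 0.723, -0.022 and 0.697 between libraries of the same number. For antibody and LPS at 72 h r was 0.267, 0.011 and 0.319, and at 24 h it was -0.047, -0.043 and -0.365. The source of these correlations was not tested.

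Among all genes, calls for LPS at 72 h against PBS were 3, against 178 by DESeq2, 2170 by voom, 99 in a fit of the groups compared and 0 with the block. For antibody at 24 h against PBS they were 3605, against 1806 with the block and 1730 in the same libraries without it. For antibody at 72 h they were 1975 against PBS (539 with the block, 548 without it, 3053 by voom) and 2256 against LPS (4433 by voom, 1123 in a fit of the groups compared). For the change in the antibody effect they were 947, against 1673 by DESeq2, 1585 by voom, 617 with no filter, 478 with the block, 605 without it and 286 in a fit of the groups compared. Upper-quartile factors moved the median of all genes for LPS at 24 h against PBS from -0.03 to -0.16 and the split of calls from 2849 higher and 2767 lower to 2030 and 3490. For antibody at 72 h against LPS the split moved from 1289 and 967 to 968 and 1315. Groups of 3 libraries limit precision, most of all for Hmox1 and for Nqo1 and Srxn1, whose levels were low.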
